A study of Mus musculus with 9 samples.

Results

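The 44 genes described here encode the enzymes, droplet proteins, nuclear receptors and carriers of fatty acid and triglyceride metabolism. They were listed by function and matched by symbol to a table of 28059 Entrez gene IDs. All 44 were found, and 39 passed the filter on low values, 1 RPKM (reads per kilobase of gene model, scaled to library size) or more in 3 or more of the 9 libraries. The RNA came from YAMC, a mouse intestinal cell line labelled as small intestine, although the name YAMC usually stands for a conditionally immortal line of young adult mouse colon. The design compared parental cells, labelled wildtype, with clone 1 and clone 19, both labelled Cdk8 -/- and made from that line by CRISPR, to ask how expression differs once Cdk8, a kinase that docks on the Mediator complex, is disrupted. All cells grew at 32 °C and were taken in logarithmic growth, and each group had 3 libraries. Each knockout group is 1 clone, and unedited clones are not analysed here, so the isolation of a clone and the disruption of Cdk8 cannot be told apart in any comparison with the parental cells.

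Cells make fatty acids from cytosolic acetyl-CoA, which ATP citrate lyase and acetyl-CoA synthetase supply, acetyl-CoA carboxylase turns into malonyl-CoA and fatty acid synthase builds into palmitate. Desaturases and elongases reshape the chains, acyl-CoA synthetases activate them, and a series of acyltransferases and a phosphatase joins them to glycerol as triglyceride, which is stored in droplets, freed by lipases or exported in lipoproteins. Carnitine palmitoyltransferases carry activated chains into mitochondria for oxidation. SREBP factors drive the genes of synthesis, and PPAR receptors, bound to RXR partners, drive genes of uptake, storage and oxidation. In the intestine, absorptive cells take up dietary fat and repackage it into chylomicrons.

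The depth of the libraries, estimated from what 1 read was worth in genes with low values, lay between 23.1 and 44.01 megareads, and between 17974 and 18907 genes had a value above 0. Cdk8 itself was lower but not lost, with means of 17.6 RPKM in parental cells, 11.0 in clone 1 and 10.4 in clone 19 (log2 fold changes -0.66 and -0.74). Markers of the labelled tissue were nearly absent. The 8 absorptive enterocyte markers (among them Fabp1, Fabp2, Apoa4, Alpi and Sis) summed to 0.140 to 0.299 RPKM over the 9 libraries, with Apoa4 and Alpi at 0 in each group, and the 7 adipocyte markers summed to 0.0587 to 0.327 RPKM. The epithelial list summed to 613 to 632 RPKM in parental cells, 986 to 1036 in clone 1 and 969 to 975 in clone 19, nearly all of it from the keratins Krt8, Krt18 and Krt19, with Cdx2 at 0 throughout. All 5 mesothelial markers were present. Upk3b, Wt1, Lrrn4 and Upk1b rose in both clones while Msln fell (-0.43 and -0.14), and the sum went from 964 to 966 RPKM in parental cells to 1703 to 1753 in clone 1 and 1760 to 1767 in clone 19, while 7 mesenchymal markers summed to 1777 to 1838, 1567 to 1607 and 1307 to 1378 RPKM. Within that list Col3a1 rose in both clones (0.35 and 0.27) and Col1a2 rose in clone 1 and fell in clone 19 (0.50 and -0.26). Endothelial markers, of which only Kdr passed the filter, summed to 1.61 to 1.79 RPKM in parental cells and 0.790 to 0.962 in the clones. Macrophage and immune markers, of which only Cd68 passed, summed to 3.19 to 4.34 RPKM over all libraries. Cd68 averaged 2.62, 3.12 and 3.56 RPKM in parental cells, clone 1 and clone 19. It was called higher in clone 19 (0.37, adjusted p = 0.0050, limma) and not in clone 1 (0.22, adjusted p = 0.062). Csf1r, under the filter, went the other way, at means of 0.933, 0.210 and 0.166 RPKM. The part of these shifts in the results that follow was not tested, and in bulk RNA fewer cells of a type and less RNA per cell cannot be told apart.

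More members rose than fell in both clones. In clone 1, 22 of the 39 tested members rose (56.4%, against 39.8% of all 12568 tested genes) and 10 fell (25.6% against 32.6%). In clone 19, 18 rose (46.2% against 36.7%) and 12 fell (30.8% against 32.3%), all by limma on log2(RPKM + 0.5) at a Benjamini-Hochberg adjusted p under 0.05. The median log2 change of the tested members was 0.15 in clone 1 and 0.07 in clone 19, beside 0.03 and 0.02 over all tested genes. The same direction was called in both clones for 18 members that rose (30.7% of all tested genes did) and 10 that fell (25.8%), and for no member in opposite directions. These 2 comparisons share the parental libraries. Most tested genes were called in each clone (72.4% and 69%), so a call alone sets no member apart, and Elovl7 and Lpin1 had no parental library at 1 RPKM and passed the filter only through the clones. Without these 2 genes, 20 of 37 rose in clone 1, 16 in clone 19 and 16 in both clones. The shares of all tested genes still hold genes that passed in the same way, so they are not matched to these counts. Changes of at least 1.5-fold on the log2(RPKM + 0.5) scale, which shrinks changes of low genes, were fewer. In clone 1 they comprised 5 members that rose (Fads2, Elovl7, Lpin1, Mttp and Cpt1a) and 5 that fell (Acsl1, Dgat2, Plin3, Ppard and Fabp5). The rises of Elovl7 and Lpin1 are no independent evidence, since both passed the filter only through the clones. In clone 19 they comprised 2 that rose (Fads1 and Fads2) and 3 that fell (Acsl1, Dgat2 and Fabp5), where 13.9% and 12.4% of all tested genes changed that much. On that scale the rises of Elovl7, Lpin1, Lipe and Mttp in clone 19 fell short of 1.5-fold. Their mean RPKM went from 0.566 to 1.07, 0.610 to 1.1, 1.74 to 2.84 and 1.48 to 2.31.

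**Figure D1:**
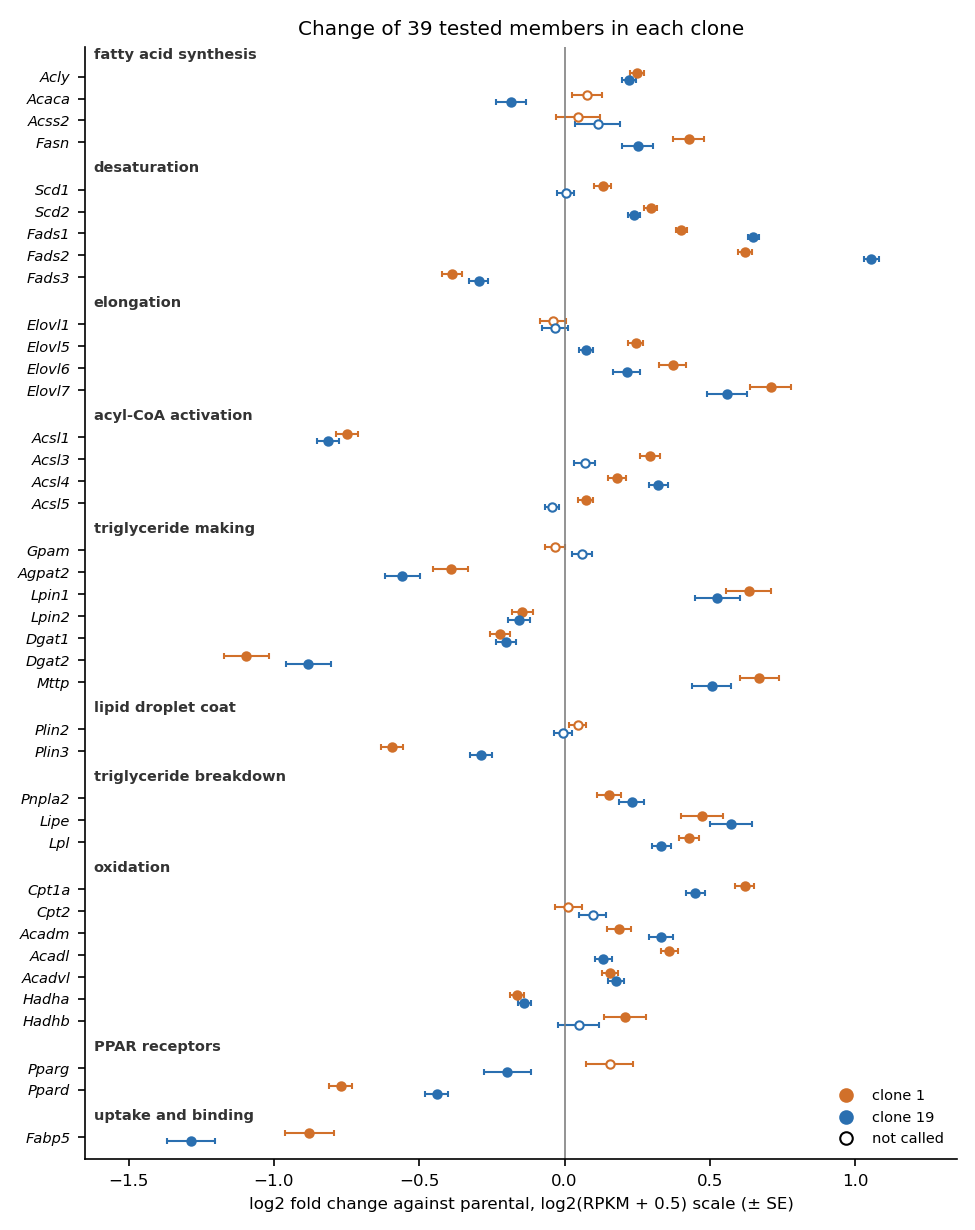
Log2 fold change of the 39 tested members against parental cells (x axis, log2(RPKM + 0.5) scale, bars are SE from limma, n = 3 against 3), grouped by role (y axis), for clone 1 (orange) and clone 19 (blue); open points were not called. Fads2 lies farthest to the right in clone 19 (1.06), and Fabp5 (-1.28) and Dgat2 (-1.09 in clone 1) lie farthest to the left.

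Of the genes of fatty acid synthesis, Fasn and Acly rose in both clones and Acaca fell in clone 19. Fasn, which encodes fatty acid synthase, gave 32.1, 33.7 and 31.1 RPKM in parental cells, 47.8, 40.4 and 42.9 in clone 1, and 37.6, 38.2 and 39.9 in clone 19. Every clone library was above every parental one, and every clone 1 library above every clone 19 one. By limma the log2 fold change was 0.43 ± 0.05 (SE, adjusted p = 2.7e-05) for clone 1 and 0.25 ± 0.05 (adjusted p = 0.0015) for clone 19. Acly, ATP citrate lyase, measured 55.1, 56.5 and 54.3 RPKM, then 66.8, 65.0 and 65.8 in clone 1 and 62.8, 65.2 and 65.97 in clone 19. Its clone libraries overlapped each other and lay above the parental ones (0.25 and 0.22, adjusted p = 3.5e-06 and 9.9e-06, limma). Chromosomal neighbours of both genes were higher too. When the typical deviation (median) of the 50 closest tested genes along the chromosome was subtracted in each library, the call of Acly in clone 1 ended (0.04, adjusted p = 0.16, limma), as did that of Fasn in clone 19 (0.08, adjusted p = 0.22, limma), and the rise of Acly in clone 19 was 0.09.

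Acaca, the acetyl-CoA carboxylase of the cytosol, went apart in the clones. Its libraries read 5.94, 5.71 and 5.60 RPKM in parental cells, 6.34, 5.64 and 6.32 in clone 1, and 4.89, 5.22 and 4.90 in clone 19. Clone 19 lay below both other groups, and clone 1 overlapped the parental range. The change was 0.08 ± 0.05 in clone 1 (limma, adjusted p = 0.21, or 0.13 and 0.037 without clone 1 replicate 2) and -0.18 ± 0.05 in clone 19 (adjusted p = 0.0089, limma). With neighbouring genes subtracted limma gave 0.20 (adjusted p = 0.0073) for clone 1 and -0.02 (adjusted p = 0.72) for clone 19. A near-identical gene, Gm5182, shares at least 95% identity over 64.3% of the Acaca transcript, so reads could have been split between them. Acss2, which makes acetyl-CoA from acetate, was near the filter at 0.814 to 1.07 RPKM over the 9 libraries and was not called in either clone. Acacb, the carboxylase of the mitochondrial surface, did not pass the filter (0.189 to 0.306 RPKM).

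The Fasn promoter is shown because Fasn is the enzyme that completes the synthesis of palmitate and its window held 3 matches to a motif searched. The window covers 250 bases before to 50 after the RefSeq start, at chr11:120824498-120824797 on the minus strand of GRCm38.p6, printed 5′ to 3′ along the gene with matches in capitals.
Fasn: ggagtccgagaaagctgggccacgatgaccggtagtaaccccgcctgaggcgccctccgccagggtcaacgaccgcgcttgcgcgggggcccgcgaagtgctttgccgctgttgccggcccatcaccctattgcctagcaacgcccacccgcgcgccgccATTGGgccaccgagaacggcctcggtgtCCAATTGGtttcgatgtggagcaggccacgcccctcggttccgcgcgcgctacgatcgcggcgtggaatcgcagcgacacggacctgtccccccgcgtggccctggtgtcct
On both strands, 3 motifs were searched: the NF-Y box CCAAT, the sterol regulatory element TCACNCCAC and the PPAR element, a direct repeat of AGGTCA with 1 base between. Fasn held 3 NF-Y matches, 2 of them overlapping as an inverted pair, and no match to the other motifs in this window. A window was found for 36 of the 44 members (not for Scd1, Scd2, Fads1, Dgat1, Dgat2, Lpl, Fabp4 and Fabp5). The NF-Y box stood in 19 of the 45 windows of these members and in 37.4% of all 32851 windows. The sterol element stood in 1 member window and in 1.24% of all windows, and the PPAR element in no member window and in 0.0396% of all windows. A match describes letters and not a bound site.

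Fads2 and Fads1, the desaturases of polyunsaturated chains, showed the largest rises of the tested members in clone 19. Fads2, the delta-6 desaturase that begins the lengthening of linoleic and linolenic acid, stood at 93.8, 98.5 and 95.01 RPKM in parental cells, 146, 150.4 and 146 in clone 1, and 199, 195 and 205 in clone 19. Fads1, the delta-5 desaturase that follows it, stood at 86.3, 88.0 and 86.0 RPKM, then 113, 116 and 116, and 137, 135 and 138. For both genes the 3 groups formed separate steps, with clone 19 the highest. Fads2 changed by 0.62 ± 0.02 and 1.06 ± 0.02 (adjusted p = 2.6e-09 and 7.2e-11, limma), and Fads1 by 0.40 ± 0.02 and 0.65 ± 0.02 (adjusted p = 7.2e-09 and 2.3e-10, limma). The difference between the clones was itself called, at 0.43 for Fads2 (adjusted p = 6.0e-07, limma) and 0.25 for Fads1 (adjusted p = 4.0e-06, limma).

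Fads3, the third gene of the cluster, whose product is also of the front-end desaturase family, fell. It read 23.9, 24.9 and 24.8 RPKM in parental cells, 19.1, 17.9 and 18.9 in clone 1, and 20.6, 19.3 and 19.8 in clone 19. All clone libraries lay below the parental ones (-0.39 ± 0.03 and -0.30 ± 0.03, adjusted p = 1.5e-06 and 1.6e-05, limma). In the RefSeq gene order Fads3, Fads2 and Fads1 stand side by side, so these unequal changes lay within 1 stretch of chromosome 19. Beyond Fads1 in that order, the log2 fold change was 0.12 and 0.08 for Fen1, 0.15 and 0.08 for Tmem258, 0.67 and 0.76 for Myrf and 0.72 and 0.43 for Dagla. On the Fads3 side it was 0.05 and 0.03 for Incenp and -0.01 and 0.17 for Fth1, with Best1 and Rab3il1 under the filter. With neighbouring genes subtracted, Fads2 changed by 0.51 and 0.92, Fads1 by 0.29 and 0.51 and Fads3 by -0.52 and -0.46. The promoter windows of Fads2 (chr19:10101454-10101753, minus strand) and Fads3 (chr19:10041298-10041597, plus strand), both GRCm38.p6, are shown because these neighbours moved in opposite directions. Capitals mark NF-Y matches.
Fads2: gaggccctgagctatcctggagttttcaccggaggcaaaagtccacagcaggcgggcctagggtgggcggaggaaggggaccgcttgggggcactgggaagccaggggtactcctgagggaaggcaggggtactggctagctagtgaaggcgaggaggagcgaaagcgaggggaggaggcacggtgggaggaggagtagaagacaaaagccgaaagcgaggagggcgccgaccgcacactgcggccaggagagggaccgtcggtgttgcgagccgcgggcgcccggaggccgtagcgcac
Fads3: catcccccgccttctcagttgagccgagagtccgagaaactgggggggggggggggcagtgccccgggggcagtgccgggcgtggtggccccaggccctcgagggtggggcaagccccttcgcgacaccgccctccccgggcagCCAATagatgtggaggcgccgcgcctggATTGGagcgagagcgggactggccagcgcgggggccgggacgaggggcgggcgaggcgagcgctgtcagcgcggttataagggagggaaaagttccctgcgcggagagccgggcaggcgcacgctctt
Fads3 held 2 NF-Y matches, starting 106 and 78 bases before the start site, and Fads2 held none of the 3 motifs in this window.

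The stearoyl-CoA desaturases, which put the first double bond into saturated chains, changed less. Scd2 had the highest level of all tested members in each group, with 184, 187 and 185 RPKM in parental cells, 231, 224 and 228 in clone 1 and 212, 219 and 225 in clone 19. All of its clone libraries lay above the parental ones, and the clones overlapped (0.30 ± 0.02 and 0.24 ± 0.02, adjusted p = 3.5e-07 and 2.3e-06, limma). The rise of Scd2 was 0.16 and 0.11 after subtraction of neighbouring genes. Scd1 read 38.1, 38.4 and 36.8 RPKM in parental cells, 42.2, 40.8 and 41.3 in clone 1, and 36.5, 38.1 and 39.1 in clone 19. It rose a little in clone 1 (limma, 0.13 ± 0.03, adjusted p = 0.0018), while clone 19 overlapped the parental range (0.004 ± 0.03, adjusted p = 0.91, limma). After subtraction of neighbouring genes the rise of Scd1 in clone 1 was gone (-0.0084, adjusted p = 0.82, limma) and clone 19 was called lower (-0.14, adjusted p = 0.0015, limma). Stretches of at least 95% identity to Scd1 cover 11.4% of the Scd2 transcript.

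Of the elongases, which add carbon pairs to acyl-CoA, Elovl5, Elovl6 and Elovl7 rose in both clones and Elovl1 was called in neither. Elovl6, which lengthens palmitate, went from a mean of 5.90 RPKM to 7.78 in clone 1 and 6.92 in clone 19, with all clone libraries above the parental ones (0.37 and 0.21, adjusted p = 2.7e-05 and 0.0018, limma). These calls ended with neighbouring genes subtracted, at 0.11 (adjusted p = 0.070, limma) and -0.061 (adjusted p = 0.28, limma). Elovl5, which lengthens the products of the polyunsaturated desaturases, went from 42.6 RPKM to 50.6 and 44.9 (0.24 and 0.07, adjusted p = 4.8e-06 and 0.021, limma). With neighbouring genes subtracted its changes were 0.16 and 0.15. Its call in clone 19 ended without clone 19 replicate 2 (adjusted p = 0.087, limma) or parental replicate 3 (adjusted p = 0.072, limma), and with median-ratio scaling (adjusted p = 0.066, limma). Elovl7, of the very-long-chain group, stood at 0.607, 0.573 and 0.517 RPKM in parental cells, 1.31, 1.21 and 1.21 in clone 1, and 1.03, 1.13 and 1.04 in clone 19. It rose by 0.71 ± 0.07 and 0.56 ± 0.07 (adjusted p = 4.0e-06 and 3.2e-05, limma), from a level under the filter. Elovl7 passed that filter only through the clones, where it was high, so its test is no independent evidence of a rise. Elovl1 stayed between 27.3 and 31.0 RPKM over the 9 libraries. A near-identical gene, Gm11295, matches 13.5% of the Elovl6 transcript.

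Of the acyl-CoA synthetases, which activate free fatty acids, Acsl1 fell and Acsl4 rose in both clones. Acsl1, a synthetase tied to oxidation and triglyceride synthesis in many tissues, stood at 12.7, 12.5 and 12.1 RPKM in parental cells, 7.31, 7.31 and 6.95 in clone 1, and 7.03, 6.93 and 6.58 in clone 19. The clones overlapped each other far below the parental libraries (-0.75 ± 0.04 and -0.81 ± 0.04, adjusted p = 2.0e-08 and 1.1e-08, limma), and the values without neighbouring genes were close to these (-0.74 and -0.77). Gm45244, on the opposite strand, overlaps 9.91% of the Acsl1 exon bases. Acsl4, which prefers arachidonic acid, averaged 29.7 ± 0.374, 33.8 ± 1.40 and 37.3 ± 0.909 RPKM in the 3 groups (SD, n = 3) (0.18 and 0.32, adjusted p = 3.4e-04 and 3.9e-06, limma). Its call in clone 1 ended with neighbouring genes subtracted (0.062, adjusted p = 0.065, limma). Acsl3, the droplet-associated form, rose in clone 1 from 13.4 to 16.6 RPKM (0.29, adjusted p = 1.8e-05, limma). In clone 19 it averaged 14.1 RPKM (limma, 0.07, adjusted p = 0.10), and with neighbouring genes subtracted it was called higher there (0.11, adjusted p = 0.011). Acsl5 was the most abundant of the 4, at 60.8, 63.9 and 59.0 RPKM. Its small rise in clone 1 (0.07, adjusted p = 0.022, limma) ended without clone 1 replicate 3 (adjusted p = 0.084), without parental replicate 1 (0.097), with median-ratio scaling (0.13) and with neighbouring genes subtracted (0.14). In clone 19 it changed by -0.04 (adjusted p = 0.15, limma), and it was called lower there with median-ratio scaling (adjusted p = 0.043) or neighbouring genes subtracted (0.0062).

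Acsl1 has 2 RefSeq starts with a window, and the one at chr8:46490716-46491015 (GRCm38.p6, plus strand) held the sole sterol element among the member windows. It is shown, with motif matches in capitals, because it holds that element in a gene that fell.
Acsl1: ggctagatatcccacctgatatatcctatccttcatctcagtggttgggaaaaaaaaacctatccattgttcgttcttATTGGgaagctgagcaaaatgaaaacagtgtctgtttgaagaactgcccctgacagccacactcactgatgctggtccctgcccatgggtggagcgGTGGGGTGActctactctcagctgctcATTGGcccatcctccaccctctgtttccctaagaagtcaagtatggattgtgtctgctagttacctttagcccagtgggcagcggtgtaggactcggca
The sterol element stands on the strand opposite to the gene, 76 bases before the start site, between 2 NF-Y matches that begin 172 and 49 bases before it. The window of the other Acsl1 start held none of the 3 motifs, and values per gene do not say which start was used.

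**Figure D2:**
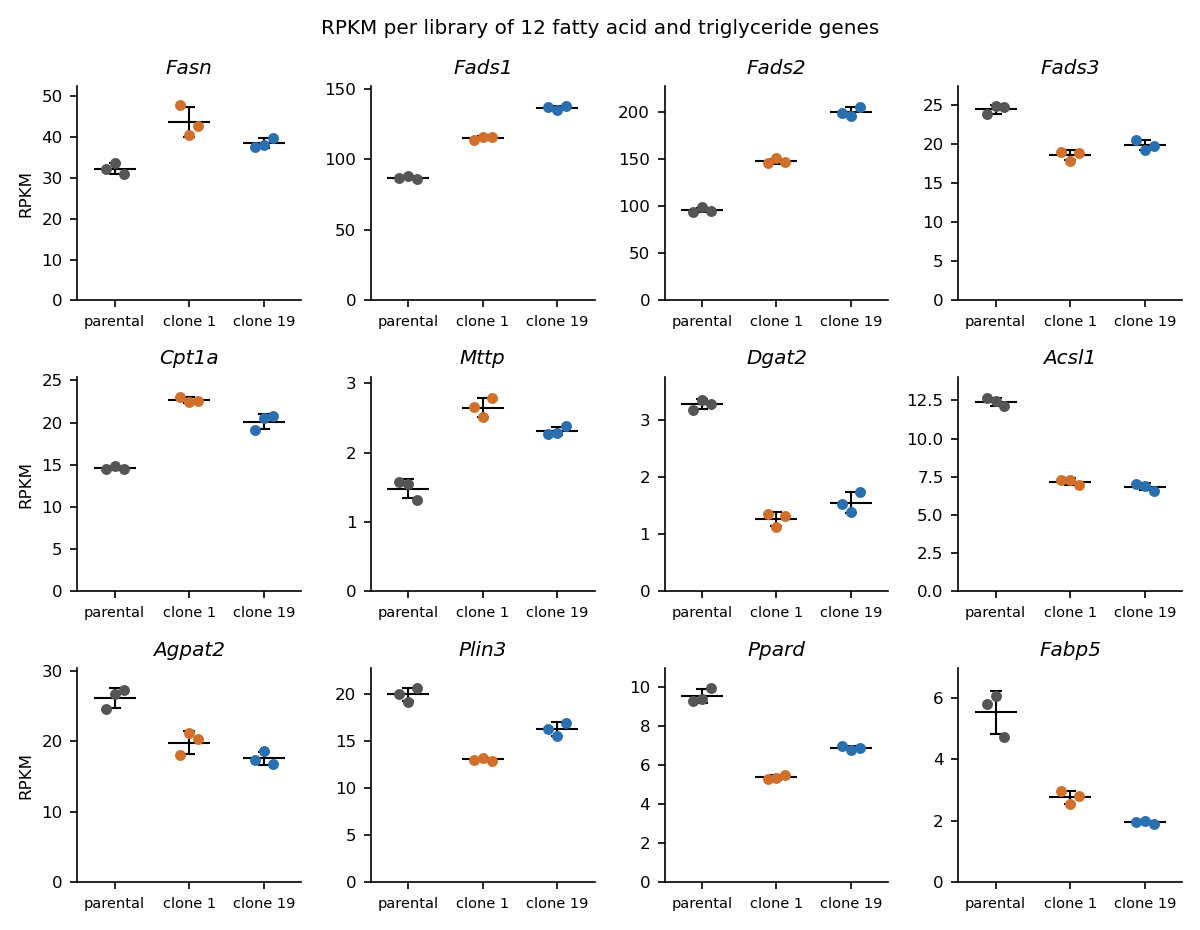
RPKM of 12 members in each of the 9 libraries (y axis, linear from 0), by group (x axis); points are libraries, bars are mean ± SD (n = 3). Fads1 and Fads2 step up from parental to clone 1 to clone 19 and Fabp5 steps down (5.51, 2.76 and 1.96 RPKM), while Acsl1, Agpat2 and Dgat2 are low in both clones.

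Of the 7 members grouped under triglyceride making, 4 fell in each clone, where 32.6% and 32.3% of all tested genes did, and 2 of the 4 lost a call with neighbouring genes subtracted. The group includes Mttp, which serves lipoprotein export and does not itself make triglyceride. Agpat2, Lpin2, Dgat1 and Dgat2 fell in both clones, Lpin1 and Mttp rose in both, and Gpam, the mitochondrial glycerol-phosphate acyltransferase of the first step, was called in neither (11.3, 11.0 and 11.8 RPKM). Gpam was called lower in clone 1 with neighbouring genes subtracted (-0.096, adjusted p = 0.038, limma). Dgat2, an acyltransferase of the last step, stood at 3.17, 3.35 and 3.28 RPKM in parental cells, 1.36, 1.13 and 1.31 in clone 1, and 1.53, 1.38 and 1.74 in clone 19. All clone libraries lay far below the parental ones, with clone 1 the lowest (-1.09 ± 0.08 and -0.88 ± 0.08, adjusted p = 2.5e-07 and 1.7e-06, limma). Dgat1, the other acyltransferase of that step, has no sequence kinship to Dgat2 and fell less, from 11.4 ± 0.293 RPKM (SD, n = 3) to 9.71 ± 0.243 and 9.87 ± 0.239 (-0.22 and -0.20, adjusted p = 1.6e-04 and 3.7e-04, limma).

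Agpat2, which makes phosphatidic acid, stood at 24.5, 26.6 and 27.2 RPKM in parental cells, 18.1, 21.1 and 20.3 in clone 1, and 17.4, 18.6 and 16.8 in clone 19. Both clones lay below the parental libraries and overlapped each other (-0.39 ± 0.06 and -0.56 ± 0.06, adjusted p = 1.3e-04 and 8.9e-06, limma). The genes around Agpat2 were lower as well, by 0.35 and 0.34, and with them subtracted the change in clone 1 was -0.05 (adjusted p = 0.54, limma) and that in clone 19 was -0.22. The phosphatidate phosphatases, which make diacylglycerol, parted. Lpin1 stood at 0.573, 0.662 and 0.597 RPKM in parental cells, 1.25, 1.17 and 1.24 in clone 1, and 0.964, 1.16 and 1.18 in clone 19 (0.63 ± 0.08 and 0.53 ± 0.08, adjusted p = 2.2e-05 and 1.1e-04, limma). Lpin1 passed the filter only through the clones, where it was high, so its test is no independent evidence of a rise. Lpin2, at a higher level, fell from 8.38 to 7.53 and 7.46 RPKM (-0.14 and -0.16, adjusted p = 0.0044 and 0.0030, limma). With neighbouring genes subtracted Lpin2 was not called (0.080 and -0.058, adjusted p = 0.10 and 0.22, limma).

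Mttp, which loads lipid onto apolipoprotein B, stood at 1.58, 1.55 and 1.32 RPKM in parental cells, 2.65, 2.51 and 2.79 in clone 1, and 2.27, 2.28 and 2.38 in clone 19. The 3 groups did not overlap, with clone 1 the highest (0.67 ± 0.07 and 0.51 ± 0.07, adjusted p = 4.1e-06 and 4.5e-05, limma). The genes around Mttp were higher by 0.32 and 0.31, and with them subtracted Mttp rose by 0.35 and 0.20. Apob, whose protein Mttp serves, averaged 0.0262, 0.0223 and 0.0133 RPKM in the 3 groups.

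On the droplet surface, Plin3 fell and Plin2 was called in neither clone. Plin3, a coat protein that binds nascent droplets, stood at 20.1, 19.2 and 20.7 RPKM in parental cells, 13.0, 13.2 and 12.9 in clone 1, and 16.3, 15.5 and 16.99 in clone 19. The groups formed 3 separate steps with clone 1 the lowest (-0.59 ± 0.04 and -0.29 ± 0.04, adjusted p = 1.0e-07 and 4.3e-05, limma), and the clones differed by 0.31 (adjusted p = 1.2e-04, limma). Neighbouring genes subtracted, the falls were -0.33 and -0.16. Plin2, whose level follows droplet content in many cells, averaged 27.7 ± 0.542, 28.6 ± 0.665 and 27.6 ± 0.917 RPKM (SD, n = 3), and the near-identical Gm12551 matches 13.7% of its transcript.

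The 3 tested members of triglyceride breakdown rose in both clones, where 30.7% of all tested genes did. Pnpla2, the triglyceride lipase ATGL, stood at 17.6, 18.3 and 19.0 RPKM in parental cells, 20.7, 20.2 and 20.4 in clone 1, and 23.1, 21.1 and 20.6 in clone 19; the clones overlapped each other above the parental libraries (0.15 ± 0.04 and 0.23 ± 0.04, adjusted p = 0.0071 and 5.4e-04, limma). Lipe, hormone-sensitive lipase, which cuts diacylglycerol, rose from 1.74 ± 0.111 RPKM (SD, n = 3) to 2.61 ± 0.0415 and 2.84 ± 0.312 (0.47 and 0.57, adjusted p = 1.2e-04 and 3.3e-05, limma). An antisense gene on the opposite strand overlaps 15.6% of the Lipe exon bases in GENCODE, and whether the counting used strand is not given in the sources used here. Lpl, the secreted lipoprotein lipase, rose from 21.6 ± 0.910 to 29.2 ± 0.628 and 27.3 ± 0.664 RPKM (0.43 and 0.33, adjusted p = 5.7e-07 and 5.2e-06, limma). Gpihbp1, which anchors Lpl to capillary walls, was listed at 0 in each group. Mgll, which cuts monoacylglycerol, did not pass the filter (0.119 to 0.306 RPKM). Among tested lipases outside the members, Lipa (-0.42 and -0.35), Ddhd2 (-0.38 and -0.45) and Daglb (-0.27 and -0.14) fell in both clones. Lipg was called higher in both but passed the filter only through the clones. Daglb lost its call in clone 19 with neighbouring genes subtracted (-0.086, adjusted p = 0.19, limma).

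**Figure D3:**
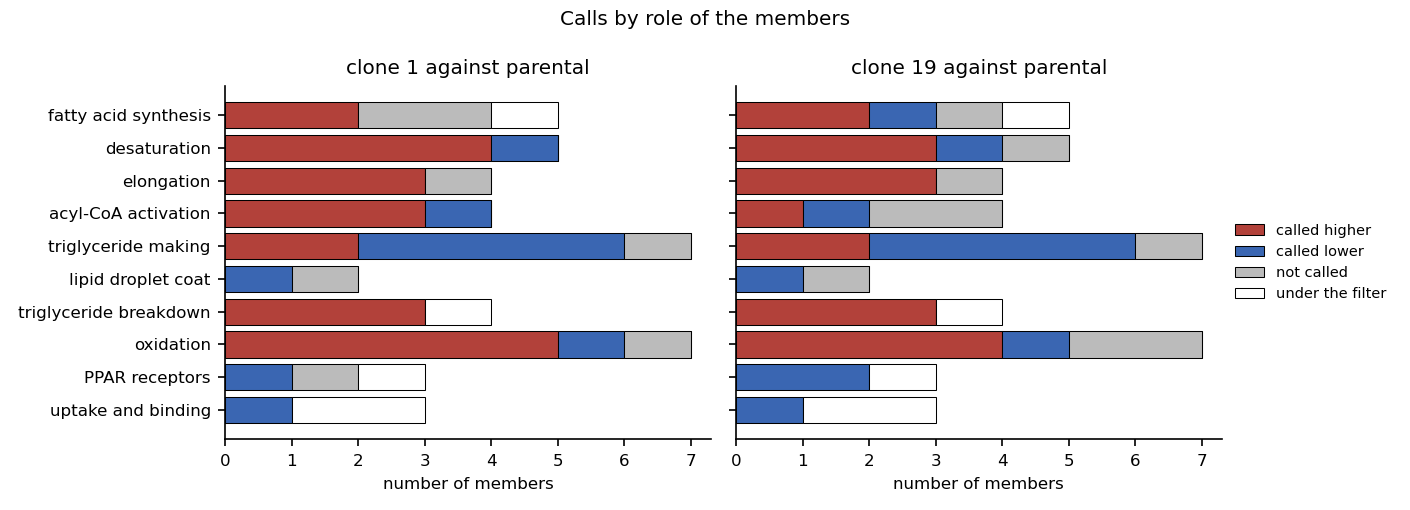
Number of the 44 members (x axis) called higher, called lower, not called or under the filter on low values, by role (y axis), for clone 1 (left) and clone 19 (right). The blue bar is longest in triglyceride making, where 4 of 7 members, Mttp counted among the 7, fell in each clone.

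Of the 7 members of mitochondrial oxidation, 5 were called higher and 1 lower in clone 1, and 4 and 1 in clone 19, where 39.8% and 36.7% of all tested genes were called higher. Cpt1a, the carnitine palmitoyltransferase that sets the rate of entry into mitochondria, stood at 14.5, 14.8 and 14.4 RPKM in parental cells, 23.1, 22.4 and 22.6 in clone 1, and 19.1, 20.5 and 20.7 in clone 19. The 3 groups did not overlap (0.62 ± 0.03 and 0.45 ± 0.03, adjusted p = 2.5e-08 and 3.7e-07, limma), and the rise was much the same without neighbouring genes (0.65 and 0.39). Cpt2, which acts on the inner side, averaged 5.77, 5.83 and 6.21 RPKM and was called in neither clone (0.01 and 0.10, adjusted p = 0.81 and 0.088, limma). In clone 19 it was called higher without clone 19 replicate 2 (adjusted p = 0.043) or with neighbouring genes subtracted (0.041).

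The acyl-CoA dehydrogenases of medium, long and very long chains rose in both clones. Acads, the short-chain enzyme and not a member, fell from 19.8 to 15.5 and 16.6 RPKM (-0.35 and -0.25, adjusted p = 2.6e-06 and 4.3e-05, limma). Acadl averaged 40.9 ± 1.31, 52.7 ± 0.394 and 44.9 ± 1.42 RPKM in the 3 groups (SD, n = 3) (0.36 and 0.13, adjusted p = 7.1e-07 and 0.0018, limma). Acadm went the other way round, from 7.298 ± 0.209 to 8.38 ± 0.386 and 9.31 ± 0.202 RPKM (0.19 and 0.33, adjusted p = 0.0018 and 2.9e-05, limma). With neighbouring genes subtracted, Acadm lost both calls (-0.086 and 0.069, adjusted p = 0.096 and 0.18, limma). Acadvl went from 27.2 to 30.4 and 30.9 RPKM (0.16 and 0.18, adjusted p = 3.3e-04 and 1.4e-04, limma). In clone 19 that call was lost with neighbouring genes subtracted (0.04, adjusted p = 0.24, limma). Exons of Dvl2 on the opposite strand overlap 42.9% of the Acadvl exon bases, so its reads may be shared.

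Hadha and Hadhb encode the 2 subunits of the mitochondrial trifunctional protein, which carries out the later steps on long chains. Hadha stood at 28.1, 28.9 and 28.6 RPKM in parental cells, 25.2, 25.4 and 25.6 in clone 1, and 25.5, 26.2 and 25.9 in clone 19, both clones below the parental libraries (-0.16 ± 0.02 and -0.14 ± 0.02, adjusted p = 6.6e-05 and 2.6e-04, limma). In clone 19 the fall of Hadha was -0.08 with neighbouring genes subtracted. Hadhb was listed far lower, at 2.82, 2.89 and 3.35 RPKM, then 3.51, 3.74 and 3.43, and 2.88, 3.18 and 3.35. It was called higher in clone 1 (limma, 0.21 ± 0.07, adjusted p = 0.021) and not in clone 19 (0.05, adjusted p = 0.56). The call was lost without clone 1 replicate 2 (limma, adjusted p = 0.073), parental replicate 1 (0.084) or parental replicate 2 (0.071). The genes Gm13910 and Gm9108 match 69.7% of the Hadhb transcript at 95% identity or more, so the level of Hadhb, and its distance from Hadha, are uncertain. The start sites of Hadha and Hadhb face away from each other and their promoter windows share 228 bases, which is why the Hadhb window is shown (chr5:30155003-30155302, GRCm38.p6, plus strand), with the shared part in capitals. The Hadha window is chr5:30154931-30155230 on the minus strand.
Hadhb: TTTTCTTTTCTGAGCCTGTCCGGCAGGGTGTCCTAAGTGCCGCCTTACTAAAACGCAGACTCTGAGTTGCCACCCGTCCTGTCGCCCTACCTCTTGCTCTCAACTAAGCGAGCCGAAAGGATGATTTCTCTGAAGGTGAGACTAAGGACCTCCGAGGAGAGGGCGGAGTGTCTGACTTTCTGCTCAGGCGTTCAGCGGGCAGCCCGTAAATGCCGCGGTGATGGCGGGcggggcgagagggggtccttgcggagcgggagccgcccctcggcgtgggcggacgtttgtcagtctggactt
Neither window held any of the 3 motifs.

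Ppard, the most abundant PPAR receptor in these cells, fell in both clones. It stood at 9.26, 9.37 and 9.92 RPKM in parental cells, 5.27, 5.34 and 5.51 in clone 1, and 6.95, 6.80 and 6.89 in clone 19. The groups formed 3 separate steps with clone 1 the lowest (-0.77 ± 0.04 and -0.44 ± 0.04, adjusted p = 1.6e-08 and 1.7e-06, limma), and the clones differed by 0.33 (adjusted p = 8.7e-05, limma). The falls were -0.39 and -0.23 after subtraction of neighbouring genes. Pparg, the receptor of fat cell formation, read 1.21, 1.27 and 1.60 RPKM in parental cells, 1.58, 1.54 and 1.55 in clone 1, and 1.12, 1.13 and 1.10 in clone 19, so that clone 19 lay below both other groups and clone 1 overlapped the parental range. It differed between the clones (-0.35, adjusted p = 0.0052, limma). Its fall in clone 19 was just called (-0.20 ± 0.08, adjusted p = 0.049, limma), and the call was lost without parental replicate 3 (-0.11, adjusted p = 0.21), without any 1 of the clone libraries (adjusted p from 0.059 to 0.10), with a replicate block (0.064), with no filter (0.085) and with only the groups compared (0.078). In clone 1 Pparg was not called (0.15, adjusted p = 0.11, limma) but was called higher without parental replicate 3 (0.25, adjusted p = 0.0099). Ppara did not pass the filter (0.0226 to 0.0723 RPKM).

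Fabp5, a cytosolic fatty acid binding protein of epithelia, fell the most of all members in clone 19. It stood at 5.80, 6.04 and 4.70 RPKM in parental cells, 2.96, 2.53 and 2.80 in clone 1, and 1.97, 1.99 and 1.90 in clone 19. The 3 groups did not overlap (-0.88 ± 0.08 and -1.28 ± 0.08, adjusted p = 3.0e-06 and 1.5e-07, limma), and the clones differed by -0.41 (adjusted p = 0.0029, limma). Genes around Fabp5 were higher, and with them subtracted the falls were larger (-1.21 and -1.647). The genes Gm14328 and Gm6166 match 41.3% of the Fabp5 transcript at 95% identity or more, which makes its level uncertain. Cd36, the scavenger receptor that takes up fatty acids, was listed at 0 RPKM in all 9 libraries, and Fabp4, the binding protein of fat cells and capillaries, at 0 to 0.106 RPKM.

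The clones differed from each other in 21 of the 39 tested members. In clone 19, 8 were higher than in clone 1 (18.5% of all tested genes were) and 13 were lower (24.5%), by limma at an adjusted p under 0.05. The count of higher members dropped to 5 without clone 1 replicate 2 or clone 19 replicate 3, where 17.6% and 16% of all tested genes were higher. Higher in clone 19 were the desaturases Fads1 and Fads2, Plin3, Ppard, Acsl4, Acadm, Dgat2 and Gpam. Lower in clone 19 were Fabp5, Pparg, Acaca, Fasn, Scd1, Elovl5, Elovl6, Acsl3, Acsl5, Acadl, Cpt1a, Lpl and Agpat2. Among the synthesis genes and stearoyl-CoA desaturases, Acaca (log2 difference -0.26, adjusted p = 0.0025, limma), Fasn (-0.18, adjusted p = 0.022) and Scd1 (-0.13, adjusted p = 0.0049) were lower in clone 19. Acly (-0.03, adjusted p = 0.41, limma), Acss2 (0.07, adjusted p = 0.50) and Scd2 (-0.06, adjusted p = 0.058) were not called. Of the genes acting on polyunsaturated chains, Fads1 and Fads2 were higher in clone 19 and Elovl5 lower. The calls of Gpam, Dgat2, Agpat2 and Lpl (adjusted p = 0.041 to 0.046) were each lost without any 1 of 6 or 7 of the 9 libraries. Fasn lost its call without clone 1 replicate 1 (adjusted p = 0.057) or clone 19 replicate 1 (0.074) or 2 (0.057), Acadm without clone 1 replicate 2 (0.058) or clone 19 replicate 3 (0.055), and Elovl6 without clone 1 replicate 3 (0.075) or clone 19 replicate 1 (0.072). Elovl5 lost it with neighbouring genes subtracted (-0.014, adjusted p = 0.70), and so did Acadl (-0.089, adjusted p = 0.055).

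**Figure D4:**
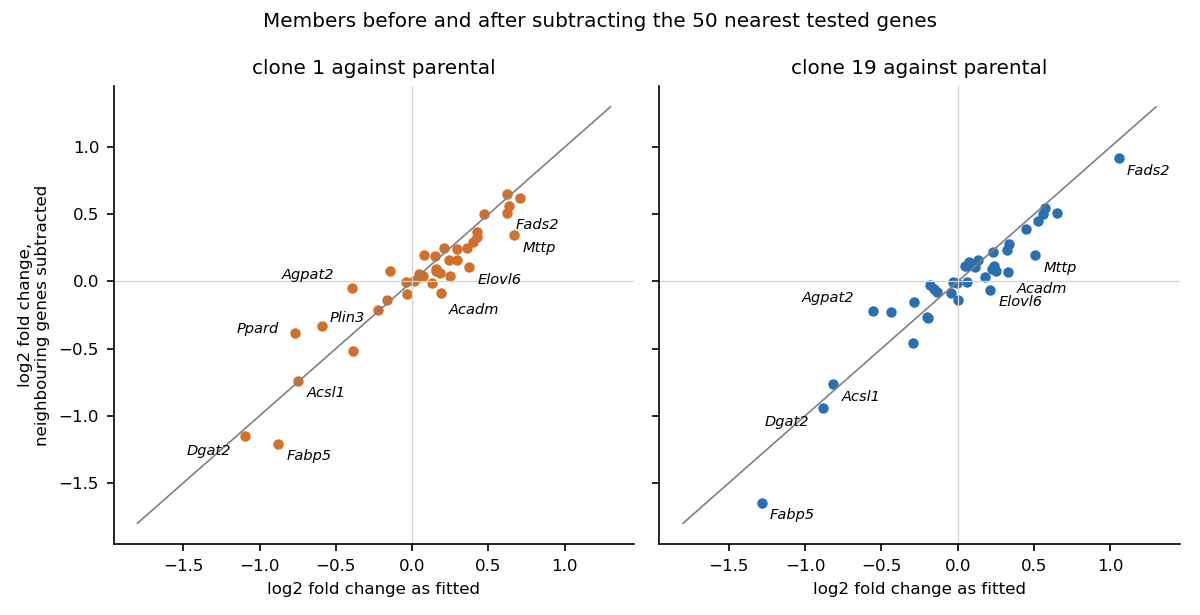
Log2 fold change of the 39 tested members as fitted (x axis) and after subtraction of the median shift of the 50 tested genes closest to each (y axis), for clone 1 (left) and clone 19 (right); the grey line marks equal values. Fads2, Dgat2 and Acsl1 lie near the line, while Agpat2, Elovl6 and Acadm move toward 0 and Fabp5 moves farther from it.

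Of 133 other genes of these pathways, 94 passed the filter. Clone 1 had 43 higher and 32 lower, and clone 19 had 41 and 32, with 36 called higher and 26 called lower in both. These are 45.7% and 43.6% higher, beside 39.8% and 36.7% of all tested genes, and 34.0% and 34.0% lower, beside 32.6% and 32.3%. In both clones 38.3% were higher and 27.7% lower, beside 30.7% and 25.8%. The ones named by rule were called in the same direction in both clones (adjusted p from 2.5e-10 to 2.6e-04 in clone 1 and from 3.7e-11 to 0.0030 in clone 19, limma). Among 12 regulators of lipid synthesis, 7 were higher and 4 lower in clone 1, against 6 and 4 in clone 19. Srebf2, the SREBP factor best known for cholesterol genes, rose by 0.73 and 0.98, and Insig1, its retention partner in the endoplasmic reticulum, by 0.64 and 0.86. Srebf1, chosen after its values were seen because it encodes the SREBP factor of fatty acid genes, rose less (28.3 to 33.6 and 33.2 RPKM, log2 fold change 0.24 and 0.23). Neither call of Srebf1 held once neighbouring genes were subtracted (limma, -0.037 with adjusted p = 0.27 and 0.017 with adjusted p = 0.63). Nr1h2, the LXR-beta receptor, changed by -0.44 and -0.17. Mlxipl (ChREBP), Nr1h3 (LXR-alpha) and Thrsp did not pass the filter. Of 8 other synthesis genes, 4 were higher and 1 lower in clone 1, against 6 and 1 in clone 19, led by Mid1ip1, an activator of acetyl-CoA carboxylase (0.57 and 0.65), and Oxsm, of mitochondrial fatty acid synthesis (0.62 and 0.39), then Acsf3 (0.45 and 0.41). Both calls of Acsf3 were lost by that subtraction too (limma, 0.063 with adjusted p = 0.27 and 0.11 with adjusted p = 0.068).

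Of all tested genes, 39.8% were called higher and 32.6% lower in clone 1, and 36.7% and 32.3% in clone 19. Of 7 further desaturation and elongation genes, 4 were higher and 2 lower in clone 1, against 3 and 2 in clone 19. Degs1, the dihydroceramide desaturase, rose from 104.9 to 176.7 and 139.2 RPKM (0.75 and 0.41), and the elongation cycle enzymes Hsd17b12 (0.47 and 0.48) and Hacd4 (0.41 and 0.23) rose too. Of 12 further acyltransferases and phosphatases, 4 rose and 5 fell in each clone. Gpat3, a glycerol-phosphate acyltransferase of the endoplasmic reticulum, fell from 2.35 RPKM to 0.964 and 0.751 (-0.96 and -1.20) and passed the filter only through the parental libraries. Mogat2 fell (-0.60 and -0.43), and the lysophospholipid acyltransferase Lpcat4 rose (0.74 and 0.80). Among 13 genes of uptake, activation and thioesters, 5 were higher and 6 lower in clone 1, against 5 and 5 in clone 19. The lipoprotein receptor Vldlr fell (-1.34 and -1.34), as did the thioesterases Acot1 (-1.05 and -1.0031) and Acot2 (-0.99 and -0.95), which are close paralogs whose reads may be split.

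Beside the counts here stand 39.8% higher and 32.6% lower over all tested genes in clone 1, and 36.7% and 32.3% in clone 19. Of 11 further droplet and lipolysis genes, 5 were higher and 5 lower in clone 1, against 3 and 4 in clone 19. Angptl4, a secreted inhibitor of Lpl and a PPAR target, rose from 3.67 to 8.66 and 8.57 RPKM (1.13 and 1.12), and Lmf1, which Lpl needs to mature, fell from 2.80 to 1.23 and 1.23 RPKM (-0.95 and -0.94, or -0.58 and -0.81 with neighbouring genes subtracted). Lipg, endothelial lipase, rose (0.92 and 0.50) from a level under the filter. Lipg passed that filter only through the clones, where it was high, so its test is no independent evidence of a rise. Of 25 further oxidation genes, 11 were higher and 7 lower in clone 1, against 12 and 9 in clone 19. Crat, carnitine acetyltransferase, fell from 8.41 to 4.55 and 4.33 RPKM (-0.82 and -0.88, or -0.49 and -0.58 with neighbouring genes subtracted), while Etfb (0.53 and 0.52), which passes electrons on from acyl-CoA dehydrogenases, and Acad11 (0.54 and 0.33) rose. Of 6 PPAR partners and targets, 3 were higher and 2 lower in clone 1, against 2 and 2 in clone 19. Rxra, the partner receptor of the PPARs, fell from 11.5 to 4.01 and 4.995 RPKM (-1.42 and -1.13), and Ucp2, a mitochondrial carrier, rose from 3.63 to 9.002 and 12.8 RPKM (1.20 and 1.69), as did the coactivator Ppargc1b (0.61 and 0.61).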

How the data were processed

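The authors deposited 1 table of RPKM values, per its file name, with 1 column per library, matched to samples by the identifiers in their descriptions. Per the submitters' processing notes, GSNAP and DESeq were used with genome build NCBIM37. For versions, annotation, strand setting and counting rule, the sources used here give nothing. RPKM divides by gene length and library reads, so a shift in RNA composition moves all values. Per the labels' protocols, libraries were made with a TruSeq kit from column-purified total RNA.

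Of the 28059 IDs, 24998 were named through the RefSeq table of GRCm38 and 16 through GENCODE M21; 3045 stayed unnamed. Promoter windows are RefSeq's on GRCm38.p6, which is not the authors' build. Near-identical copies were sought with blastn 2.17.0 in GENCODE M21 transcripts (95% identity over at least 200 bases).

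Values were tested as log2(RPKM + 0.5) in 1 model of the 9 libraries (limma 3.58.1 under R 4.3.3, eBayes with trend), with Benjamini-Hochberg adjustment over all 12568 genes at 1 RPKM or more in at least 3 libraries. Fold changes are on that scale, which understates changes of low genes. On simulated data for clone 1 against parental cells (12568 genes), 50 genes were altered at each size of change. The fit recovered 74% of genes altered by a log2 change of 0.25 and 96% of those altered by 0.5, and called 10 unaltered genes. Far fewer genes were altered there than were called in the data (72.4%), so these rates do not give the power of the test used here. Whether replicates were separate cultures is not in the labels, so the spread behind each p-value may be technical.

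Members and lists were chosen with earlier results of these data known. Values in every library are given for members changed at least 1.5-fold in a clone or by 0.3 (log2) between clones, with a call, and for Acly, Acaca, Fasn, Scd1, Cpt1a and Pnpla2; a few others were added. Of other pathway genes, at most 3 per list were named by rule, those with the largest change called the same way in both clones. Among those tested, Srebf1, Lipa, Ddhd2, Daglb and Acads were named outside that rule. Alternatives were other pseudocounts (0.1, 1), the filter dropped or set at 3 RPKM, scaling by median ratio, a replicate block, only the groups compared and each library left out; subtraction of the 50 nearest tested genes was added later.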

Additional observations from a re-analysis of the deposited data

Results flagged for a closer look

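The change against parental cells differed between the 2 knockout clones, by limma's test of clone 19 against clone 1 at an adjusted p under 0.05, for 21 of the 39 tested members, where 43% of all tested genes differed. Each value is the log2 difference, clone 19 minus clone 1. In the genes of synthesis, desaturation and elongation it was -0.26 for Acaca, -0.18 for Fasn, -0.13 for Scd1, 0.25 for Fads1, 0.43 for Fads2, -0.17 for Elovl5 and -0.16 for Elovl6. Activating enzymes gave -0.23 for Acsl3, 0.14 for Acsl4 and -0.11 for Acsl5. For triglyceride making, droplets and breakdown the values were 0.094 for Gpam, -0.17 for Agpat2, 0.21 for Dgat2, 0.31 for Plin3 and -0.095 for Lpl. Oxidation genes gave -0.17 for Cpt1a, 0.14 for Acadm and -0.23 for Acadl. The receptors gave -0.35 for Pparg and 0.33 for Ppard, and Fabp5 gave -0.41. Acaca and Pparg were called lower in clone 19 and were not called in clone 1.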

How the results depend on the processing

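Each clone's counts of members that rose and fell stayed within 1.5 times the reported values under every alternative run, and most single values kept their direction and their side of the threshold. Of the counts between the clones, the members higher in clone 19 ranged from 5 to 9 with a library left out, against 8. The share of all tested genes higher in clone 19 was then 15.5% to 17.9%, against 18.5%. Leaving out a library turned only values close to 0. These ranged in clone 1 from -0.014 to 0.093 for Acss2 and from -0.0038 to 0.040 for Cpt2. In clone 19 they ranged from -0.027 to 0.019 for Plin2, from -0.018 to 0.030 for Scd1 and from -0.067 to 0.019 for Elovl1. Between the clones they ranged from -0.0095 to 0.038 for Acadvl, from -0.027 to 0.017 for Lpin2 and from -0.027 to 0.059 for Elovl1. Median-ratio scaling turned Cpt2 in clone 1 (-0.013) and Scd1 in clone 19 (-0.015). Subtraction of neighbouring genes, added later, gave 13 members higher and 8 lower in both clones, against 18 and 10. Fewer of all tested genes were then called higher too, 33.6% in clone 1 and 32% in clone 19, against 39.8% and 36.7%. The shares called lower were 32.7% and 31.3%, against 32.6% and 32.3%. Of the 18 the subtraction kept 12, among them Elovl7 and Lpin1, which passed the filter only through the clones. It added Acsl3, and of the 10 it kept 8. It turned Acadm (-0.086), Scd1 (-0.0084) and Lpin2 (0.080) in clone 1, Gpam (-0.0018), Elovl6 (-0.061) and Scd1 (-0.14) in clone 19, and Acly (0.055), Acadvl (-0.043) and Dgat1 (-0.052) between the clones; the cause was not tested. Same-numbered libraries of different groups correlated in their deviations at -0.035 to 0.123, and differently numbered ones at -0.14 to 0.081. Weak correlations cannot exclude a pairing, so whether the numbers pair libraries is not known. With a replicate block, clone 1 had 22 members higher and 10 lower, where 39.7% and 32.2% of all tested genes were. Clone 19 had 18 and 11 (36.4% and 31.8% of all tested genes), against 12 lower without the block. Between the clones 7 were higher and 12 lower (17.8% and 23.3% of all tested genes).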
